A study of Homo sapiens with 21 samples.

Results

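The cancer-testis antigen genes measured here were the protein-coding genes whose symbols begin with MAGEA, MAGEB, MAGEC, GAGE, XAGE, PAGE, SPANX, SSX or CTAG, without hyphenated or pseudogene symbols, together with HORMAD1. The rule took 79 of the 60617 genes in the tables. Of these, 72 belonged to the named families, and 7 matched by letters only: SSX2IP, which encodes a protein that binds SSX2, and 6 CTAGE genes, which belong to a separate family. A further 26 genes with a matching symbol were left out as pseudogenes, hyphenated symbols or genes that do not code for protein. Apart from HORMAD1, all members of the named families lie on the X chromosome.

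Cancer-testis antigens are proteins made in male germ cells and hardly at all in other healthy adult tissues, and some tumours make them again. In somatic cells many of their promoters are kept silent by DNA methylation. Most of the families lie on the X chromosome in clusters of near-identical copies, while HORMAD1, a protein of the meiotic chromosome axis, is encoded on chromosome 1. Type I MAGE proteins such as MAGEA3 and MAGEA6 bind E3 ubiquitin ligases, of which TRIM28 is the best studied.

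SUM149PT is a human cell line from an inflammatory breast cancer without estrogen or progesterone receptor. The study sequenced polyadenylated RNA from 7 lines of it, untreated, with 3 libraries each. The lines were the uncloned line (Parental) and 6 clones derived from it: E, EM1, EM2, EM3, M1 and M2. Each name stands for 1 clone, so what belongs to a clone and what belongs to its epithelial, intermediate or mesenchymal state cannot be told apart. The comparisons ask how the genes differ between the clones and E, between E and Parental, and between M2 and M1.

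Library totals ran from 24.6 to 48.1, in units of 1e6 expected counts. The libraries also differed in the mean effective length over commonly detected genes, which the labels do not mention: it put the clone libraries into a short set of 1881 to 1938 bases (all of E and replicate 3 of the other clones) and a long set of 1996 to 2094 bases. The summed level of 14 germ cell markers was 0.05 to 0.71 TPM in M2, where 10 of the 14 were at 0, among them the protamines PRM1 and PRM2 and the germ cell helicase DDX4. The summed level of 9 epithelial markers was 6763.8 to 7351.35 TPM in E, 369.46 to 596.45 in M1 and 524.61 to 764.51 in M2, and that of 9 mesenchymal markers was 477.53 to 522.24, 6706.15 to 7443.41 and 2307.44 to 4084.81 TPM. The part of these differences in the results was not tested.

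Most members were silent in every line. No read was assigned in any of the 21 libraries to 22 of the 79 genes, and 60 of them never reached 10 counts in a library. All 11 MAGEB, 13 GAGE, 6 PAGE, 8 SSX and 3 CTAG genes were among these 60, and the CTAG genes encode the antigens NY-ESO-1 and LAGE-1. The 12 family members with a line mean of at least 1 TPM were 5 MAGEA genes, MAGEC1, 3 XAGE genes, 2 SPANX genes and HORMAD1. A filter on low counts kept 18632 genes, of which 17 were members; a member that passes it because 1 line is high has to differ, so what follows is read from levels first.

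Of the 11 X-linked members that reached a line mean of 1 TPM, 10 did so in M2 and in no other line, and SPANXC was at 97.9 TPM in M2 and also passed 1 TPM in M1 (1.36 ± 0.62, SD, n = 3). TPM is the authors' level of a transcript, scaled by gene length and by library. The summed level of the X-linked members was 1293.36, 1022.87 and 1167.53 TPM in the 3 M2 libraries, resting on 19637, 11176 and 29570 counts. In each of the other 18 libraries it was 0.15 to 2.29 TPM, resting on 6 to 33 counts. No X-linked member reached 10 counts in any of those 18 libraries, against 13, 12 and 12 members in the M2 libraries. M1, the other clone with high mesenchymal markers, was among the 18, at 1.01, 2.14 and 2.29 TPM.

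**Figure D1:**
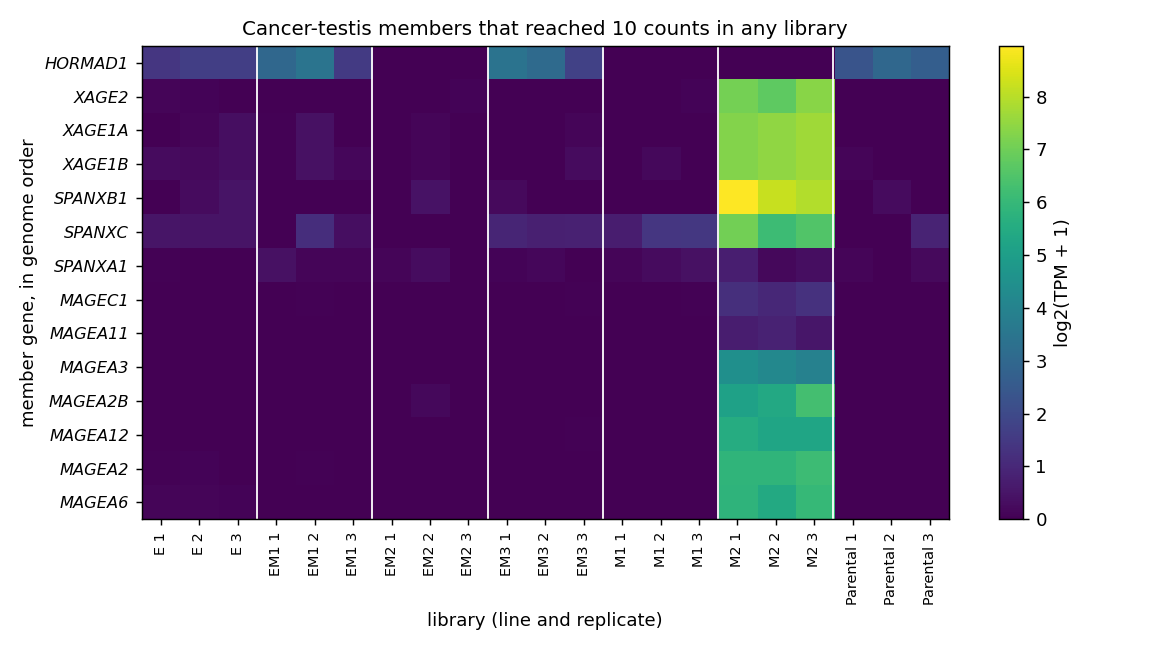
Level of each family member that reached 10 counts in any library (rows, in genome order) in the 21 libraries (columns, by line and replicate), as log2(TPM + 1). The X-linked rows are bright only in the 3 M2 columns, where their summed level was 1022.87 to 1293.36 TPM, while HORMAD1 is absent from the EM2, M1 and M2 columns.

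The sequences just upstream of the start are shown for members that were on in M2, to let their CG content be compared, and for MAGEA4, a silent gene of the same family. They are the 250 bases before the first start that RefSeq lists, from GRCh38.p14, written 5′ to 3′ on the strand of the gene, with the CG dinucleotides, the sites of DNA methylation, in capitals. The windows are chrX:152769690-152769939 on the minus strand for MAGEA6, chrX:152753885-152754134 on the minus strand for MAGEA2, chrX:52368771-52369020 on the plus strand for XAGE2, chrX:141002344-141002593 on the plus strand for SPANXB1, chrX:141903644-141903893 on the plus strand for MAGEC1 and chrX:151912224-151912473 on the plus strand for MAGEA4.
MAGEA6: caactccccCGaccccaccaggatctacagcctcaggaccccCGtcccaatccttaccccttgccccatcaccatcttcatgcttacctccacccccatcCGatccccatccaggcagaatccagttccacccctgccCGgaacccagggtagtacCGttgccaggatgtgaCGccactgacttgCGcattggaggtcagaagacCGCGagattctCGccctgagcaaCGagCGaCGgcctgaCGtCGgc
MAGEA2: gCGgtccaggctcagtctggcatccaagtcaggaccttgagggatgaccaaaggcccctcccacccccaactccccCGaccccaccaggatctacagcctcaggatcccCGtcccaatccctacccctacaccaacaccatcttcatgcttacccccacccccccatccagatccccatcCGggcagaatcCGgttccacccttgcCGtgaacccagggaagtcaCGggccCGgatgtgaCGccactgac
XAGE2: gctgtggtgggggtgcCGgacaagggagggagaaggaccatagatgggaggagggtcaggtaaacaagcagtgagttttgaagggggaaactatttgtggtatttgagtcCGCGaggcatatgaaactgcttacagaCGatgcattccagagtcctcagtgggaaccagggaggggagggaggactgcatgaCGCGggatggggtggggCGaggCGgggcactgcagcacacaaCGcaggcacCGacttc
SPANXB1: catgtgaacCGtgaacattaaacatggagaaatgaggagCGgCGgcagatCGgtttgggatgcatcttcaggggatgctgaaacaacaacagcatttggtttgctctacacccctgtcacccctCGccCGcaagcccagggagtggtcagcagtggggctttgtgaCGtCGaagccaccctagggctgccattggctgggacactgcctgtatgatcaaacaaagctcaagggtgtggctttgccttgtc
MAGEC1: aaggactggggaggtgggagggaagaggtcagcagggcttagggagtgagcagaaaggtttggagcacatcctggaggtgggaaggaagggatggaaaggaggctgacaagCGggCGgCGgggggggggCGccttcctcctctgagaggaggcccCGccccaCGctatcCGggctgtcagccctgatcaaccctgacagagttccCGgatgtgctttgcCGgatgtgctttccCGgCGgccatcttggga
MAGEA4: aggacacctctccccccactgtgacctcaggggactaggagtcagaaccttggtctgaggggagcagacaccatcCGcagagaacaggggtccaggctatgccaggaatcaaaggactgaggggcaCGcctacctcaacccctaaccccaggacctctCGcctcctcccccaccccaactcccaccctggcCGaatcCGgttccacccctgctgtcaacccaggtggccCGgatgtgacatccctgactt
The MAGEA3 window, chrX:152698544-152698793 on the plus strand, is letter for letter that of MAGEA6. MAGEA6 has 15 CG dinucleotides, MAGEC1 has 11, XAGE2 has 10, MAGEA2 has 9, SPANXB1 has 8 and the silent MAGEA4 has 6. Windows not printed go the other way: MAGEA12 and SPANXC, both on in M2, have 5 and 6, and the silent XAGE3 has 12. Over the 11 X-linked members on in M2 the median was 11 (5 to 15), over 51 other X-linked members with a RefSeq entry it was 7 (1 to 18), and over all 27305 promoters it was 11. The others include MAGEA11, which was on in M2 below 1 TPM and holds the 18. The CG counts of the 2 groups of members overlap. The letters CCGGAA, a form of the site recognised by ETS transcription factors, were searched on either strand. They were in the identical MAGEA3 and MAGEA6 windows, 18.2% of the 11, in 2% of the 51 and in 14.8% of all promoters. The form CCGGAT, which the MAGEA2, MAGEC1 and MAGEA4 windows hold, was not searched. These matches describe letters and not binding, and methylation was not measured.

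The active genes lay in 4 stretches of the X chromosome with silent relatives between them. XAGE2 (chrX:52369030-52375680, plus strand), XAGE1A (chrX:52495676-52500812, plus) and XAGE1B (chrX:52512077-52520803, minus) lie together, and SSX7 next to them had no count in M2. SPANXB1 (chrX:141002591-141003706, plus), SPANXC (chrX:141241463-141242496, minus) and MAGEC1 (chrX:141903894-141909388, plus) form a second stretch, MAGEA11 (chrX:149688228-149717266, plus) lies alone, and MAGEA3 to MAGEA6 form the fourth. All coordinates are GENCODE 29 gene spans on hg38. MAGEC3, 6062 bases from MAGEC1, had a mean of 0.02 TPM in M2 against 1.24 TPM for MAGEC1.

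The XAGE genes encode small proteins related to the GAGE antigens. XAGE2 was at 134.45, 105.29 and 162.3 TPM in M2, resting on 1665, 887 and 3180 counts, and at 0 to 0.1 TPM in the other 18 libraries. Its pooled counts in M2, scaled to the library totals (CPM), were 2430 times those in E (95% interval 830 to 11800; intervals here cover counting error only, since the reads carry no molecular identifiers), and at least 1520 times those in Parental. The M2 libraries were all above every other library. None of its 50-base windows occurs in another gene, so its reads could be told from those of its relatives.

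XAGE1A and XAGE1B, a near-identical pair, were at 156.38, 177.85 and 204.56 TPM and at 156.51, 178.05 and 204.73 TPM. RSEM gave each copy 50% of the pair's counts in all 3 libraries, and 100% of the 50-base windows of XAGE1A occur elsewhere, so which copy was transcribed cannot be told apart. Only their sum is a measurement of its own: 312.89, 355.9 and 409.29 TPM. That sum was 1270 times higher in CPM in M2 than in E (758 to 2330).

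The SPANX genes encode sperm proteins associated with the nucleus. SPANXB1 had the highest TPM of any single member, at 496.45, 292.75 and 239.52 TPM in M2 against 0 to 0.38 TPM elsewhere. The sum of XAGE1A and XAGE1B lay above it in replicates 2 and 3, at 355.9 and 409.29 TPM. SPANXB1 was 1380 times higher in CPM in M2 than in E (633 to 3760) and at least 2480 times higher than in M1. Its libraries ranged more widely than those of XAGE2, and its effective length was 154 bases. SPANXC was at 132.68, 69.72 and 91.37 TPM on 397, 142 and 433 counts, with an effective length of 76 bases. It was the member with the most trace reads elsewhere, 0 to 1.74 TPM, and its ratio of M2 to M1 was 78.6 (47.1 to 146) against 206 (94.2 to 562) for M2 to E. Of its windows 84.9% occur in another gene: 65.7% in SPANXD, 46.7% in each of SPANXA1 and SPANXA2, and 7.7% in SPANXB1. SPANXA1, chosen after its values were seen, had 10.08, 1.51 and 5.8 counts in M2 and was not tested.

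MAGEC1, a MAGE gene with a long repetitive N-terminal part, was low: 1.3, 1.02 and 1.41 TPM in M2 on 202, 75 and 333 counts. It was at 0 to 0.04 TPM in the other libraries, and the ratio of M2 to E was 387 (107 to 3210). MAGEA11, a coregulator of the androgen receptor, was lower again at 0.66, 0.79 and 0.44 TPM on 46, 39 and 42 counts, and was at 0.02 TPM or less elsewhere. It falls under the level of 1 TPM that chose the other genes and was named after its values were seen.

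The MAGEA genes on in M2 were MAGEA3, MAGEA6, MAGEA2, MAGEA2B and MAGEA12, while MAGEA1, MAGEA4, MAGEA8, MAGEA9, MAGEA9B and MAGEA10 never had more than 5 counts. MAGEA12 shares 13.8% of its windows and is the most separable of the 5. It was at 45.52, 37.85 and 37.55 TPM in M2 against 0 to 0.03 TPM elsewhere, 2250 times higher than in E (880 to 8280) and at least 2710 times higher than in M1. MAGEA6 was at 55.12, 42.54 and 63.34 TPM and MAGEA3 at 21.08, 17.21 and 14.48 TPM. The M2 values of every one of these genes lay above all 18 other libraries.

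The near-identical MAGEA genes were divided unevenly by the read assignment. MAGEA6 received 72.4, 72.2 and 83.6% of the counts of the pair MAGEA3 and MAGEA6, which share 54.9% of the MAGEA3 windows. MAGEA2 received 85.1, 98.3 and 91.7% of the counts of MAGEA2 and MAGEA2B, but 62.8, 57.9 and 47.6% of their TPM. Behind that gap, MAGEA2B had 570.9, 39.71 and 511.86 counts at effective lengths of 428, 36 and 107 bases. The MAGEA2B level of 33.96, 41.66 and 77.01 TPM therefore rests on lengths that differ from library to library, and MAGEA2 was at 57.41, 57.41 and 69.93 TPM.

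**Figure D2:**
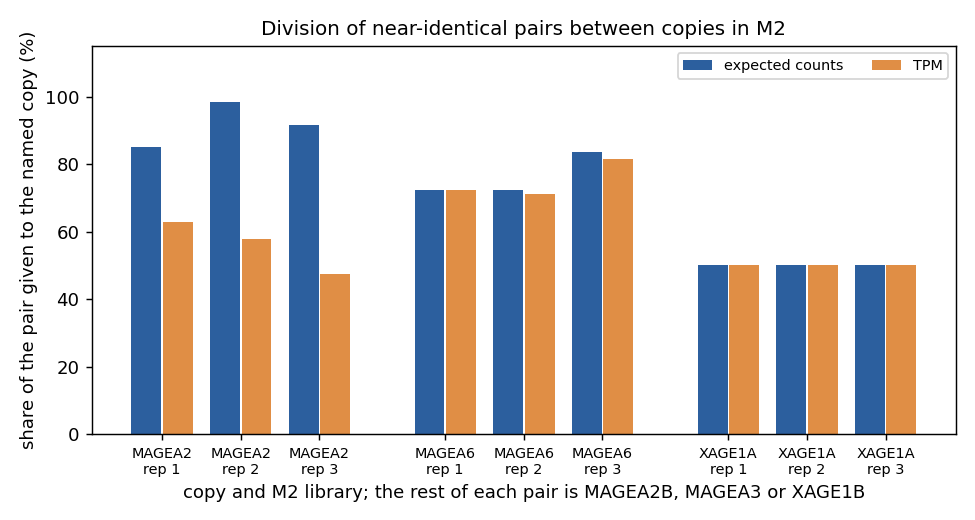
Share of each near-identical pair that RSEM gave to the named copy in the 3 M2 libraries, in expected counts (blue) and in TPM (orange); bars start at 0. The MAGEA2 share of counts was 85.1 to 98.3% but its share of TPM 47.6 to 62.8%, and XAGE1A took 50% on both scales.

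Summed counts over copies do not rest on how the reads were divided. Summed TPM still does, through the effective length given to each copy. MAGEA3 and MAGEA6 together were at 76.2, 59.75 and 77.82 TPM, 867 times higher in CPM than in E (555 to 1440). MAGEA2 and MAGEA2B together were at 91.37, 99.07 and 146.94 TPM, which carry the varying MAGEA2B lengths. In CPM the pair was 1730 times higher than in E (912 to 3790). All family members together shared reads widely: 60 of the 72 have a 50-base window in another gene, and 30 share at least 50% of their windows.

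With edgeR (quasi-likelihood test, Benjamini-Hochberg adjusted p under 0.05), 12 members were higher in M2 than in E, where 24.6% of all genes tested were called higher. Their adjusted p ran from 2.89e-10 for XAGE1B to 6.1e-05 for MAGEA2B. SPANXB1 had 3.25e-08, XAGE2 had 5.32e-08, MAGEA6 had 6.74e-08, MAGEC1 had 1.62e-06 and MAGEA11 had 3.51e-05. The median log2 difference over all genes tested was 0.01. Against M1, 12 members were higher in M2 (background 19%) and 0 were lower (background 22.2%; 0 at an unadjusted p under 0.05 and 0 by DESeq2). The filter kept most of these genes through M2, so the counts add little to the levels. Across the 7 lines 15 members differed, where the background was 62.5%.

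Neighbouring genes in the MAGEA block were on with it. CSAG1, CSAG2 and CSAG3, cancer-testis genes themselves, lie head to head with MAGEA12, MAGEA2B and MAGEA2, with 44, 37 and 37 bases between the gene ends. CSAG1 was at 42.37, 38.49 and 50.77 TPM in M2 and at no more than 0.16 TPM elsewhere. CSAG2 was at 12.33, 11.3 and 14.77 TPM and CSAG3 at 11.82, 16.88 and 12 TPM, both at no more than 0.13 TPM elsewhere. How far the CSAG genes share reads with one another was not measured. The divergent transcript at MAGEA3 was at 7.73, 7.95 and 7.59 TPM against at most 0.04 TPM. The strand setting of the counting was not given in the sources used here, so reads of overlapping genes cannot be told apart.

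Genes outside the block did not follow. They were singled out after their values were seen, and 26.8% of all genes tested were lower in M2 than in E by edgeR. GABRQ, 41218 bases from MAGEA3, was at a mean of 0.92 TPM in E, 0 in M2 and at most 0.043 in the other lines, so its low level was not particular to M2. CETN2, a centriole protein gene 57226 bases beyond MAGEA6, was lower in M2 than in E (log2 difference -1.32, edgeR adjusted p 6.8e-05), at 18.33, 10.45 and 11.75 TPM against 24.67 to 69.99 TPM in the other 18 libraries. NSDHL, an enzyme of cholesterol synthesis, was also lower in M2 than in E (log2 difference -1.94, edgeR adjusted p 0.000173). LDOC1, between SPANXB1 and SPANXC, went the other way from both: it was at 0, 0.01 and 0.1 TPM in M2 and at 32.69 to 68.26 TPM in the other 18 libraries (log2 difference from E -10.38, edgeR adjusted p 5.45e-13).

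**Figure D3:**
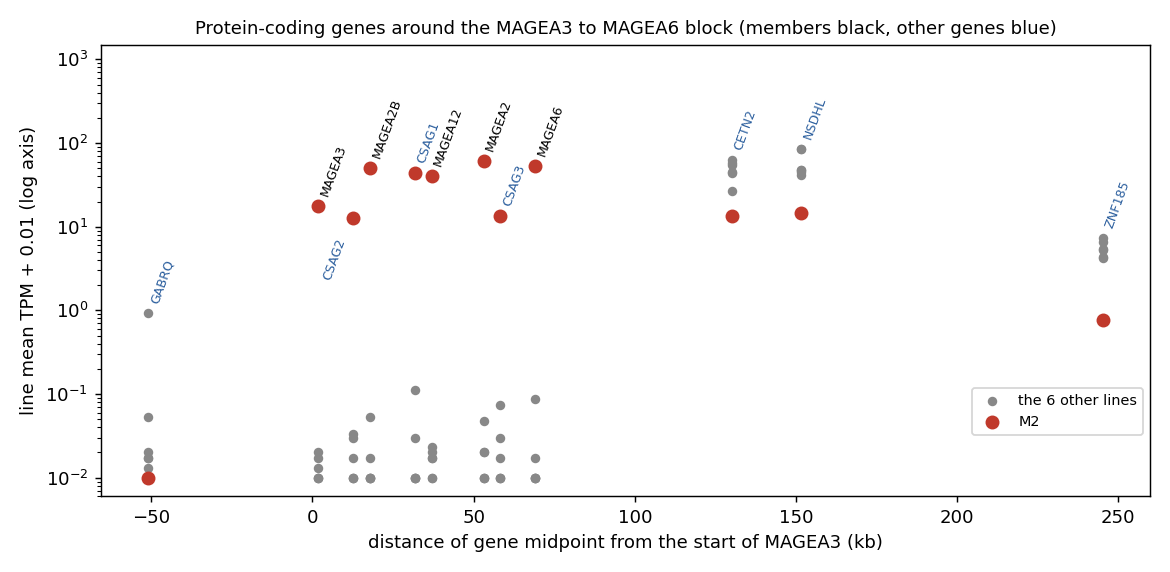
Line mean TPM plus 0.01, on a log axis, of the protein-coding genes around the block against the distance of each gene's midpoint from the start of MAGEA3 in kb, with M2 in red and the other 6 lines in grey. Members and CSAG genes are on in M2 only, while CETN2, NSDHL and ZNF185 are below the other lines in M2.

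HORMAD1 (chr1:150698060-150720888, minus strand) was on in other lines than the X-linked members. Its level was 9.57, 7.53 and 2.31 TPM in EM3, 6.98, 9.8 and 1.85 TPM in EM1, 3.99, 6.94 and 5.39 TPM in Parental and 1.67, 2.19 and 2.18 TPM in E. No read was assigned to it in EM2 or M2, and 1 read in M1. The means in order were EM3 6.47 ± 3.74, EM1 6.21 ± 4.03, Parental 5.44 ± 1.48 and E 2.01 ± 0.30 TPM (SD, n = 3 each). EM3, EM1 and Parental overlap one another, whereas EM2, M1 and M2 lie below every library of the other 4 lines. A count of 0 over the 3 libraries allows up to 0.0251 CPM in EM2 and 0.0271 in M2.

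HORMAD1 fell in EM2, M1 and M2 against E. E was at least 96.8 times higher than EM2 and at least 89.5 times higher than M2, and 307 times higher than M1 (54.7 to 12200). The edgeR adjusted p was 1.27e-05 for EM2, 3.88e-06 for M1 and 1.27e-06 for M2. HORMAD1 and MAGEA6 were the 2 members lower in EM2 than in E, where 6.95% of genes were called lower, and no member was higher (0 of the tested members by edgeR, 0 at an unadjusted p under 0.05, 0 by DESeq2; background 6.95%). In M2 the 2 lower members were HORMAD1 and CTAGE4, where the background was 26.8%.

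EM1 and EM3 were well above E in HORMAD1 only in the long set. Replicate 3 of EM1 and of EM3, in the short set with E, were at 1.85 and 2.31 TPM, inside or just above the E range of 1.67 to 2.19. The log2 difference from E was 1.38 ± 0.48 (SE) for EM1 with an edgeR adjusted p of 0.0589, and 1.34 ± 0.47 with 0.0664 for EM3. With the library set as a term in edgeR these became 0.17 (adjusted p 0.817) and 0.20 (0.752). All E libraries are in the short set, and HORMAD1 was hardly detected in EM2, M1 and M2. For this gene the term therefore rests on the long against the short libraries of EM1 and EM3. It adds little to the levels above. Parental, whose libraries belong to neither set, was above E by 1.17 on the log2 scale with an edgeR adjusted p of 0.122 (E against Parental -1.17). Other fits passed the threshold: DESeq2 for EM1 (adjusted p 0.0262) and EM3 (0.0315), edgeR without the low-count filter for both (0.043 and 0.0368), edgeR with the compared lines only for EM3 (0.0271) and for E against Parental (0.00577), and edgeR with the replicate block for EM1 (0.0493).

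**Figure D4:**
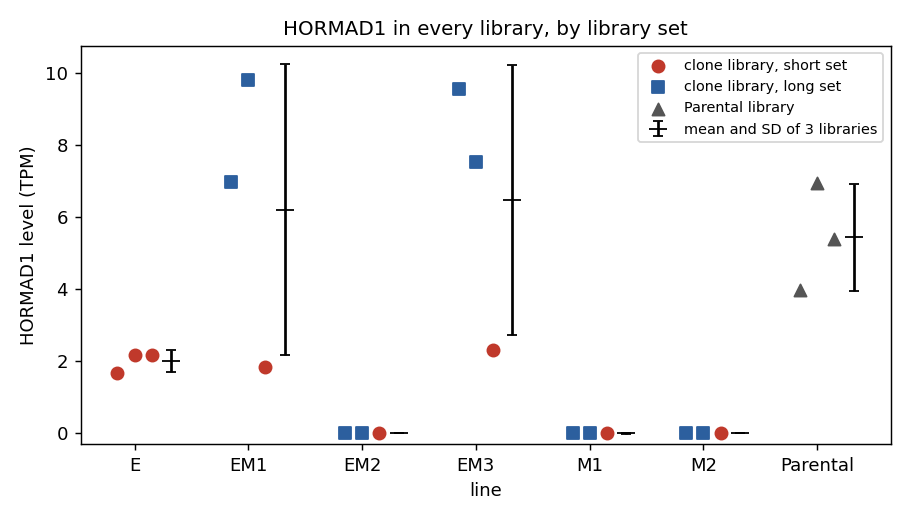
HORMAD1 level in TPM for each library of the 7 lines, with clone libraries of the short set as red circles, of the long set as blue squares and Parental libraries as grey triangles; black bars give the mean and SD of 3 libraries. EM2, M1 and M2 sit at 0 to 0.02 TPM, and the short-set libraries of EM1 and EM3 lie at 1.85 and 2.31 TPM beside those of E.

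Outside M2 the X-linked members left only traces. Their summed counts were 25 to 33 in the E libraries, 27 in replicate 2 of EM2, and 6 to 20 in the other libraries, and in summed TPM replicate 2 of EM1 and of EM2 and replicates 2 and 3 of M1 lay above every E library. MAGEA6 had 7, 8 and 4 counts in the 3 E libraries and 0 or 1 in each other library outside M2. MAGEA2 had 3, 4 and 1.48 counts in E and at most 1 elsewhere outside M2. By edgeR adjusted p MAGEA6 was lower than in E in EM1 (0.00743), EM2 (0.0162), EM3 (0.00515) and M1 (0.00224), and higher in E than in Parental (0.0165), while MAGEA2 was lower in EM3 (0.0297) and M1 (0.016). These calls rest on fewer than 10 counts per library, in E libraries with totals of 44.2 to 48.1 in units of 1e6 counts. Both genes passed the low-count filter through M2, which is in none of these contrasts. With the compared lines only, 0 members were lower in EM1 or EM3 than in E, and 0 higher in E than in Parental. In that fit the 1 lower member in EM2 was HORMAD1, and HORMAD1 was 1 of the 2 in M1. All 5 MAGEA6 calls ended with limma on log2(TPM + 1); without replicate 2 of E the calls of EM2 against E and E against Parental ended, and without replicate 1 of EM2 the former ended. The MAGEA2 calls also ended with limma on log2(TPM + 1). In M1 the MAGEA2 call ended without replicate 2 of E, and in EM3 it ended without replicate 1 or 2 of E or without any 1 library of EM3. In EM1, 1 member was lower than in E (background 8.09%) and 0 were higher (9.84%; 1 at an unadjusted p under 0.05 by edgeR, 1 by DESeq2, HORMAD1 in both). In EM3, 2 were lower (7.96%) and 0 higher (9.36%; 1 at an unadjusted p under 0.05 by edgeR and 1 by DESeq2). In M1, 5 were lower (18.1%) and 0 higher (18.1%; 0 at an unadjusted p under 0.05 by edgeR and 0 by DESeq2). Against Parental, 1 member was higher in E (5.02%) and 0 lower (5.93%; 1 at an unadjusted p under 0.05 by edgeR and 0 by DESeq2).

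The genes matched by letters only did not follow the families. SSX2IP was expressed in every line, at 8.9 to 44.94 TPM outside M2 and 10.85 to 20.05 TPM in M2, and did not pass the edgeR test across lines (adjusted p 0.264). CTAGE4 was lower in M1 and M2 than in E (edgeR adjusted p 0.00819 and 0.0256), at a mean of 0.02 ± 0.03 and 0.07 ± 0.08 TPM against 0.41 ± 0.25 TPM (SD, n = 3). CTAGE8, at 0 counts in all of M1 and Parental, was lower in M1 than in E (0.0238). CTAGE4 and CTAGE8 were named after their values were seen, and they are near-identical copies between which counts varied by library. The CTAGE8 call ended without replicate 1 of E or any 1 library of M1 (CTAGE8 adjusted p 0.0517 to 0.0716, edgeR), and the CTAGE4 call in M2 ended without replicate 2 or 3 of E or replicate 1 or 3 of M2 (CTAGE4 adjusted p 0.0533 to 0.0809).

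Other cancer-testis genes, from lists compiled for this comparison, moved both ways in M2 against E by the same edgeR test, in which 24.6% of all genes tested were higher and 26.8% lower. The counts of these lists and of those that follow are to be read against those shares. Of 48 other X-linked cancer-testis genes 8 were tested, of which 4 were higher (CSAG1, CSAG2, CSAG3 and FAM133A) and 4 were lower (IL13RA2, PLAC1, HSFX1 and FAM9B). FAM133A was at 2.96, 4.15 and 1.81 TPM in M2 against at most 0.05 TPM elsewhere. IL13RA2, a decoy receptor for interleukin-13, was at 0.15 ± 0.18 TPM in M2 and 1.13 ± 0.14 TPM in E, and at 12.89 ± 3.46 and 12.85 ± 2.93 TPM in EM1 and EM3 (SD, n = 3). Of 57 autosomal cancer-testis genes 24 were tested, 4 were higher (DDX43, SPA17, SPAG9 and KNL1) and 11 were lower. DDX43, an RNA helicase gene, was at 3.73, 2.47 and 2.66 TPM in M2 against at most 0.11 TPM elsewhere, whereas LEMD1 was at 4.61 ± 0.99 TPM in E and listed at 0 in M2.

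HORMAD1 works with other proteins of meiosis. Of 24 genes of the meiotic axis and recombination 14 were tested, where the shares over all genes were 24.6% higher and 26.8% lower: 2 were higher than in E (RAD21L1 and PSMC3IP) and 5 were lower (SYCP2, SYCE2, SYCE3, REC8 and MCMDC2). SYCE2, of the central element of the synaptonemal complex, was at 0.95 ± 0.77 TPM in M2 and 4.68 ± 0.75 TPM in E. PSMC3IP, a cofactor of strand exchange, was at 27.09 ± 9.46 and 6.63 ± 1.86 TPM.

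Type II MAGE genes are ones that many healthy tissues express. Of 6 tested, MAGEH1 was higher in M2 than in E, at 5.55 ± 3.05 TPM against 0.01 ± 0.01 TPM, with line means of at most 0.15 TPM in the other lines, and MAGEF1 and MAGEE1 were lower. MAGEF1 was at 11.99 ± 1.91 TPM in M2 and 37.17 ± 0.58 TPM in E. Of the 4 ligase and substrate genes linked to MAGE proteins, 3 were higher in M2 than in E: the deubiquitinase USP7 (log2 difference 0.70, edgeR adjusted p 0.0041), the AMPK subunit PRKAA1 (0.72, 0.0353) and the ligase RNF41 (0.90, 0.0365). TRIM28 itself did not pass.

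Of 14 genes that write, read or remove DNA methylation 13 were tested, and 4 were higher in M2 than in E. They were TET1, TET2 and TET3, the enzymes that oxidise methylcytosine, and the methyl-DNA reader ZBTB33. TET2 was at 3.84 ± 2.00 TPM in M2 and 0.90 ± 0.08 TPM in E, and TET3 at 4.76 ± 0.39 and 2.52 ± 0.15 TPM. None of the DNA methyltransferase genes passed in this comparison. Of 15 repressors of germline genes 5 were higher (E2F6, MGA, PCGF6, ATF7IP and EHMT1) and 2 were lower in M2 than in E, beside 24.6% and 26.8% of all genes. The lower ones were HDAC1, a histone deacetylase, at 34.94 ± 15.82 and 79.18 ± 7.84 TPM, and EHMT2, a histone H3 methyltransferase, at 9.74 ± 4.79 and 22.24 ± 1.64 TPM.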

How the data were processed

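The submitters' processing notes name bcl2fastq 2.20.0.422, cutadapt 2.4, STAR 2.7.2b, RSEM 1.3.2 and the build hg38. Which annotation release and which strand setting the authors used was not given in the sources used here. For each gene the authors deposited an expected count, a TPM value and an effective length in bases, per the file headers. RSEM divides a read that could come from several genes between them, and 19.1 to 22.1% of the nonzero counts in a library were not whole. Of the genes in the tables, 60596 had a symbol and 58542 matched GENCODE 29, the source of positions and gene types.

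Expected counts were rounded and tested with edgeR 4.0.16 (quasi-likelihood, robust, TMM, filterByExpr by line). The fit held all 21 libraries, with 14 residual degrees of freedom and a common biological coefficient of variation of 0.34. P-values were adjusted over the 18632 genes kept, within each of 7 contrasts and across lines. DESeq2 1.42.0 and limma 3.58.1 gave alternatives, and the test was checked on simulated data. Separate cultures for the libraries of a line are not stated in the labels, so the p-values speak only of the spread from library to library, which may be technical. Ratios are of pooled counts scaled to library totals (CPM), with a count of 0 set to 3 counts over the 3 libraries. Shared reads were described by 50-base transcript windows (GENCODE 29) that also occur in another gene. Upstream sequences were matched by symbol in RefSeq (GRCh38.p14) for 69 of the 79 genes.

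The rule for named genes took members with a line mean of at least 1 TPM, and from the other lists up to 5 genes called across lines with the highest means plus genes needed to describe a count of 5 or fewer. Members, lists and rules were chosen with earlier results of these data known. Tables were read with Python 3.11.15 and pandas 2.3.3. A result withheld for evaluation is not reported here.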

Additional observations from a re-analysis of the deposited data

How the results depend on the processing

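The 12 members higher in M2 than in E stayed 12 with each library left out. No member called in the main fit changed sign in another setting, but the counts of members called moved. For E against Parental they went from 1 higher and 0 lower to 0 higher and 2 lower with the compared lines only. Leaving out 1 library gave 14 to 15 members across lines, 12 to 13 higher in M2 than in M1 (0 lower), 1 to 2 lower in M2 than in E, 4 to 6 lower in M1 than in E (0 higher), 1 lower and 0 to 1 higher in EM1, 1 to 2 lower and 0 higher in EM2, 1 to 2 lower and 0 to 1 higher in EM3, and 0 to 1 higher and 0 lower in E than in Parental. Without the low-count filter there were 1 higher and 2 lower in EM1, 1 higher in EM3 and 3 higher in E than in Parental. The DESeq2 test gave 1 higher in EM1, 1 higher in EM3 and 2 higher in E than in Parental. With limma on log2(TPM + 1) the members lower than in E numbered 0 for EM1, 1 for EM2, 0 for EM3, 1 for M1 and 1 for M2, with 0 higher in E than in Parental. On log2(TPM + 0.1) these were 0, 1, 0, 2, 1 and 0. With the compared lines only there were 0 lower in EM1, 1 lower in EM2, 1 higher and 0 lower in EM3, 2 lower in M1, and 0 higher and 2 lower in E than in Parental. HORMAD1 and members with few counts make up part of these counts. With the compared lines only, HORMAD1 was 1 of the 2 lower in E than in Parental, and the other was not identified here. The cause was not tested.

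Some alternatives were chosen after seeing the data. With near-identical paralogs summed, each copy of a called sum was counted, silent copies included. There were 2 lower in EM1, 4 lower in EM3, 4 higher and 12 lower in M1, and 6 lower in M2 than in E. There were also 2 higher in E than in Parental and 20 higher in M2 than in M1. The 4 higher in M1 were new calls on sums, since the main fit called 0 members higher there. Without the 7 genes matched by letters there were 3 lower in M1 and 1 lower in M2. A planned grouping by protein identity was not run, because protein sequences were not used here, and the library set could not be fitted as a term across lines or for E against Parental.

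Replicate numbers were not taken as pairs: in no contrast did every same-number pair correlate above 0.1 (M2 against E 0.35, 0.08 and 0.10). With the replicate block 1 member was higher in EM1 (HORMAD1, adjusted p 0.0493) and 2 were higher in E than in Parental, and the calls over all genes rose from 9564 to 10388 in M2 against E and from 3341 to 4747 in EM1 against E. In M1 against E 6 of 6 libraries were closest to the library sharing their number. Depth limits the traces outside M2, where a count of 0 in 3 libraries allows 0.0214 (E) to 0.0342 (Parental) CPM.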
